A study of Homo sapiens with 2 samples.

Results

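Peaks at the 3′ ends of protein-coding genes made up 2141 of the 66954 MYBL2 ChIP-seq peaks of A673 cells, or 3.20% (exact binomial 95% interval 3.07 to 3.33%). A peak was counted when its summit lay within 1000 bp of the 3′ end of a canonical protein-coding transcript and more than 2000 bp from every protein-coding or lncRNA transcription start site (TSS). A673 is an established Ewing sarcoma cell line that carries the EWSR1-FLI1 fusion, an aberrant ETS transcription factor. The series held 2 samples of wild-type A673 cells, 1 ChIP library made with a rabbit monoclonal antibody to MYBL2 and 1 input library of sheared chromatin, and the deposited list compares the first with the second. Per the study's methods the antibody recognized the phosphorylated form of MYBL2. Each group had 1 library, so the values carry no replicate error and no test was made. The strength of a peak is given as the authors' fold enrichment. It is the ratio of the fragments stacked at its summit (the pileup) to a local background derived from the input. Before the ratio is taken, 1 is added to each. All intervals are at 95% and cover counting error only.

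MYBL2 (B-MYB) is a transcription factor of the MYB family that is made as cells enter S phase and joins the MuvB complex. Together they occupy promoters of genes used in G2 and mitosis, where the MuvB subunit LIN54 reads the cell cycle genes homology region (CHR) and MYB proteins read their own short motif. The 3′ end of a coding gene is the point at which the messenger RNA is cleaved and polyadenylated. RNA polymerase II transcribes beyond it before it is released, so the DNA just downstream of a 3′ end is transcribed in an active gene without being part of its messenger RNA.

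Sequences are shown, in stretches of 30 bases, for those of the 12 strongest peaks and of the peaks of cell cycle, EWSR1-FLI1-activated and MYBL2 knockdown genes that held a MYB or CHR motif within 50 bp of the summit, since these are the elements through which MYBL2 and its partners read DNA. Positions and letters come from GRCh37, whose coordinates equal those of hg19. The MYB motif was any of CAACGG or CAACTG or TAACGG or TAACTG, and the CHR motif was TTTGAA or TTCGAA, each on either strand. Both are short and common: 10.4% of all peaks in the list held the first within 50 bp of the summit and 9.68% the second, and a match is no evidence of a bound site. Capitals mark the MYB motif in the first 4 lines and the CHR motif in the others. The strand named is the one on which the motif reads as listed.
PTMA, downstream of the transcript, chr2:232578899-232578928, plus strand: ggtcaggatagcCAACTGgaggaagtgcca
RPL13A, downstream of the transcript, chr19:49996170-49996199, plus strand: aagattcaggagTAACTGtttgttacctgt
HTR3D, downstream of the transcript, chr3:183757401-183757430, minus strand: acacagatacttTAACGGtaatgcaggatt
CDCA8, 3′ untranslated region (UTR), chr1:38174880-38174909, plus strand: ttggccacagaaTAACTGtctctaagctat
DUSP6, downstream of the transcript, chr12:89740622-89740651, plus strand: gcaaatccttacTTTGAAcaggcagtttag
SOX2, 3′ UTR, chr3:181431717-181431746, minus strand: aaaatgtccaaaTTTGAAtaattttcttct
SOX2, downstream of the transcript, chr3:181432640-181432669, plus strand: gcacaatggcccTTTGAAacctggctatag
NUSAP1, downstream of the transcript, chr15:41673580-41673609, plus strand: tttgctagtttcTTTGAAaagttaacagta
TYMS, coding exon, chr18:672914-672943, minus strand: aaagtcttcagcTTTGAAgtcatcaatttt
PPP1CC, 3′ UTR, chr12:111157572-111157601, plus strand: gaaaacagactaTTTGAAagaagcaaaacc
VRK1, 3′ UTR, chr14:97347726-97347755, plus strand: taatttatgaaaTTTGAAaatcttcaggtt
STEAP1, downstream of the transcript, chr7:89794195-89794224, minus strand: aagtttttttgcTTTGAAtaaaatctgcaa

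Other strong summits held neither motif and are shown because of what else lay there. The TMEM107 summit lay beside SNORD118, a small nucleolar RNA gene inside the TMEM107 3′ UTR. The ID2, ZNF48 and FHL3 summits lay in CpG-rich DNA, and capitals mark their CpG dinucleotides. These 4 stretches are read on the strand of the gene.
TMEM107, 3′ UTR, chr17:8076716-8076745, minus strand: gttatgctgattagcagatatccacaaaca
ID2, downstream of the transcript, chr2:8825259-8825288, plus strand: agcctttcccagccaaagacCGCGggtggc
ZNF48, downstream of the transcript, chr16:30412013-30412042, plus strand: gtgCGgaaagaatccctggaCGggttctCG
FHL3, downstream of the transcript, chr1:38461716-38461745, minus strand: gaccctggctgcCGCGgtctgggctCGgcc

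Peaks were denser at gene 3′ ends than in the flanks on either side taken as wholes. The windows that satisfied the rule covered 26.6 Mb, 1.05% of the 2539 Mb that lay more than 2000 bp from a TSS, and held 5.44% (5.21 to 5.66%) of the 39384 peaks there. This came to 80.4 peaks per Mb (exact Poisson interval 77.1 to 83.9), against 15.5 per Mb over all TSS-distal DNA. The density stood at 32.0 per Mb from 10000 to 5000 bp before the 3′ end and at 46.3 per Mb from 5000 to 1000 bp before it. It was 68.6 (64.2 to 73.3) in the last 1000 bp before the end and 91.8 (86.8 to 97.0) in the 1000 bp after it. Just past the window, from 1000 to 1250 bp after the end, it was still 85.6 (76.0 to 96.0). It came down to 49.3 per Mb over 1000 to 5000 bp after the end and to 19.1 from 5000 to 10000 bp after it. The windows at 3′ ends thus held 1.68 times (1.60 to 1.77) the density of the flanks from 1000 to 5000 bp on both sides. Counting only peaks enriched at least 5-fold, the density was 11.9 per Mb at the ends, against 4.83 before and 6.16 after.

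The profile differed with the promoter of the host gene. Where a peak touched a promoter of the gene, defined as 1000 bp either side of any of its TSSs, the density was 72.3 per Mb in the flank before the end, 125 (120 to 131) at the end and 81.7 in the flank after it. In 500 bp bins it was highest from 500 to 1000 bp downstream, at 155 peaks per Mb (142 to 167). Where no promoter of the gene had a peak, the density was 15.0 (12.8 to 17.5) at the end, from 162 peaks, against 8.99 (7.66 to 10.5) before and 8.37 (7.20 to 9.67) after. The intervals at the end and in the flanks taken as wholes did not overlap in either kind of gene. The rise did not stop at the edge of the window. From 1000 to 1500 bp downstream the density was still 137 per Mb (125 to 149) with a promoter peak. It was 9.27 (6.11 to 13.5) there without one.

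**Figure D1:**
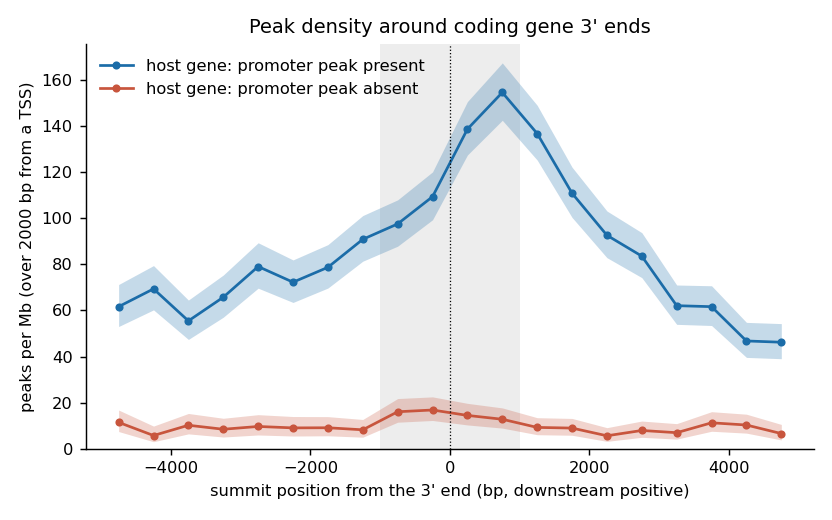
Density of TSS-distal peak summits per Mb of eligible DNA, in 500 bp bins of distance from the nearest coding 3′ end, for genes with and without a promoter peak. Shading around the lines is the exact Poisson 95% interval and the grey band is the 1000 bp window of the rule. The upper line is highest, at 155 peaks per Mb, from 500 to 1000 bp downstream of the end.

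More of the peaks lay beyond the canonical transcript with the nearest 3′ end than in it. Longer transcripts of the gene and transcripts of its neighbours were not considered here. The summit was downstream of the 3′ end in 1246 peaks and on the gene side in 895, or 41.8% (39.7 to 43.9%), while 49.1% of the eligible bases were on the gene side. Genes without a promoter peak did not show this lean. In 500 bp bins from 1000 bp before the end to 1000 bp after it they held 16.1, 16.8, 14.5 and 12.8 peaks per Mb. Genes with a promoter peak held 97.5, 109, 139 and 155. In the host transcript, 735 summits (34.3%, 32.3 to 36.4%) lay in the 3′ UTR, 104 in an intron and 56 in a coding exon. The median summit was 138 bp downstream of the end, with quartiles at 357 bp before and 580 bp after. Peaks past the end had a median fold enrichment of 3.71 and those in 3′ UTRs one of 3.59. Neighbouring genes can share this space: 277 peaks (12.9%, 11.5 to 14.4%) had a second coding 3′ end within 1000 bp. These ends were counted on either strand, so the genes need not converge. Of 1629 genes whose 3′ end had another coding 3′ end that close, 403 (24.7%, 22.7 to 26.9%) carried a peak there, against 1417 of 14721 other genes (9.63%, 9.15 to 10.1%). The order was the same among genes with a promoter peak (30.3 against 15.1%) and without one (9.93 against 2.09%).

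The strongest peak at a gene 3′ end lay at chr17:8076142-8077321 in the 3′ UTR of TMEM107, a membrane protein of the primary cilium. Its fold enrichment was 41.9 (36.3 to 48.0), from a recovered pileup of 201 fragments over a background of 3.82, and it ranked 38th among all peaks. Here and below, the interval of a fold enrichment is that of the pileup, with the background taken as known. The summit lay 956 bp before the 3′ end. The strongest promoter peak of TMEM107 stood at 7.66. SNORD118, which this UTR holds, encodes a small nucleolar RNA used in ribosomal RNA processing and has its own promoter. Small RNA start sites were not among the TSSs of the rule.

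The next 4 peaks lay downstream of their genes. PTMA, which encodes the acidic nuclear protein prothymosin alpha, had a peak of 24.0 (19.7 to 29.0) at chr2:232578165-232580503. ID2, an inhibitor of basic helix-loop-helix transcription factors, had one of 22.9 (18.7 to 27.8) at chr2:8824493-8826194. ZNF48, a zinc finger gene, had one of 22.7 (18.5 to 27.5) at chr16:30410226-30412346. Their summits lay 623, 683 and 599 bp past the end, and their promoters had peaks of 18.6, 20.4 and 15.0. DUSP6, a phosphatase that inactivates ERK kinases, stood at 22.42 (18.7 to 26.7), in a single interval of 10968 bp (chr12:89738549-89749516) that also reached the promoter, so that its 2 values are the same peak.

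The other 7 of the 12 strongest peaks also had their summits past the 3′ end. RPL13A, a protein of the large ribosomal subunit, had a peak of 21.0 (17.05 to 25.5), TUBB, a beta-tubulin, one of 17.9 (14.4 to 22.0), and FHL3, a LIM domain protein, one of 17.5 (14.1 to 21.5). LRATD2 had one of 17.5 (14.2 to 21.3). HTR3D, a subunit of the serotonin-gated ion channel, had one of 15.7 (12.6 to 19.4) although none of its promoters had a peak. ATF4, a transcription factor of the amino acid stress response, had one of 15.1 (11.7 to 19.1), and SP9, a zinc finger transcription factor, one of 13.9 (10.7 to 17.8). SLC35B2 had the same value as SP9, with its summit in the 3′ UTR. The promoter peak was stronger than the 3′ end peak in TUBB (27.0), RPL13A (21.4) and ATF4 (16.4), and weaker in FHL3 (9.85), LRATD2 (17.1) and SP9 (6.20). For RPL13A, LRATD2 and ATF4 the promoter value lay inside the interval of the 3′ end peak.

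**Figure D2:**
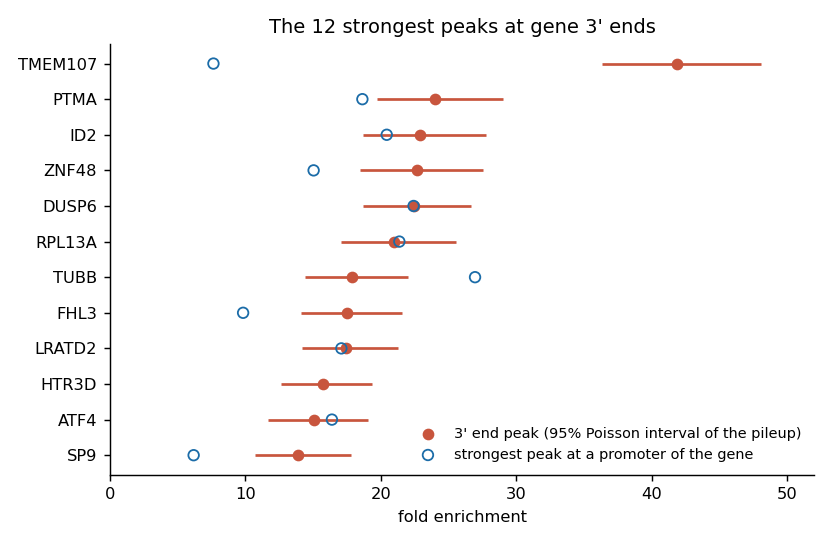
Fold enrichment of the 12 strongest peaks at gene 3′ ends, with the Poisson 95% interval of the pileup, beside the strongest promoter peak of the same gene (open circles). TMEM107 stands apart at 41.9, HTR3D has no promoter peak, and the DUSP6 circle is the same peak as its point.

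A few of the peaks were broad domains. The median width was 310 bp and 235 peaks (10.98%, 9.68 to 12.4%) were 1000 bp or wider, against 11.2% of all peaks. After DUSP6 the widest belonged to NR0B1, a nuclear receptor gene that EWSR1-FLI1 activates (7556 bp, fold enrichment 12.0), TPT1, the translationally controlled tumour protein (7364 bp, 7.44), OLFML3, a secreted olfactomedin-like protein (7084 bp, 11.2), and RPL35A, a protein of the large ribosomal subunit (6705 bp, 11.8). The NR0B1 and OLFML3 intervals also reached a promoter of the gene, and their promoter values are those of the same peaks. In all, 20 peaks reached into a promoter window although their summits were more than 2000 bp from every TSS, and 9 held a TSS. Those 20 had a median width of 3756 bp and a median fold enrichment of 7.68, against 306 bp and 3.64 for the other 2121.

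At other ends several separate peaks stood in a row. Another peak of the list lay within 2000 bp of 1666 of the peaks (77.8%, 76.0 to 79.6%), against 65.2% of all peaks, 65.4% of distal intronic and 48.2% of distal intergenic peaks. The share was 70.9% for internal coding exon peaks and larger, at 80.9%, for promoter-proximal peaks. Of the 1820 genes with a peak at the 3′ end, 1303 had 1, 417 had 2, 92 had 3 and 8 had 4 or more. The peaks nearest to the ends of SLC1A5, a glutamine transporter, numbered 4 with fold enrichments of 2.65 to 8.99. GLG1, a Golgi glycoprotein, also had 4 (2.79 to 4.94), as did PPIF, the mitochondrial cyclophilin (3.13 to 4.77), CC2D1B (3.03 to 4.61) and CFAP276, a cilium-associated protein (2.68 to 5.12). CFAP276 had no promoter peak, and the other 4 had promoter peaks of 7.06 to 15.3.

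In strength the peaks at gene 3′ ends stood a little above distal intronic and well below promoter peaks. Their fold enrichment had a median of 3.66 (quartiles 3.15 to 4.41) and ranged from 2.05 to 41.9. The median was 3.79 over all peaks, 3.55 over all TSS-distal peaks, 3.46 for distal intronic, 3.82 for distal intergenic and 4.92 for promoter peaks. A fold enrichment of at least 5 was held by 317 of 2141 (14.8%, 13.3 to 16.4%), against 24.0% of all peaks and 12.5% of TSS-distal peaks. It was held by 48.5% of promoter peaks, 22.0% of distal intergenic and 8.63% of distal intronic peaks. A −log10 q of at least 5 was reached by 1002 (46.8%, 44.7 to 48.9%). The pileup at the summit had a median of 19 fragments (range 11 to 201). The background had a median of 4.13 fragments and was at its lowest possible value in 22.7% of these peaks, against 20.3% of all peaks.

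**Figure D3:**
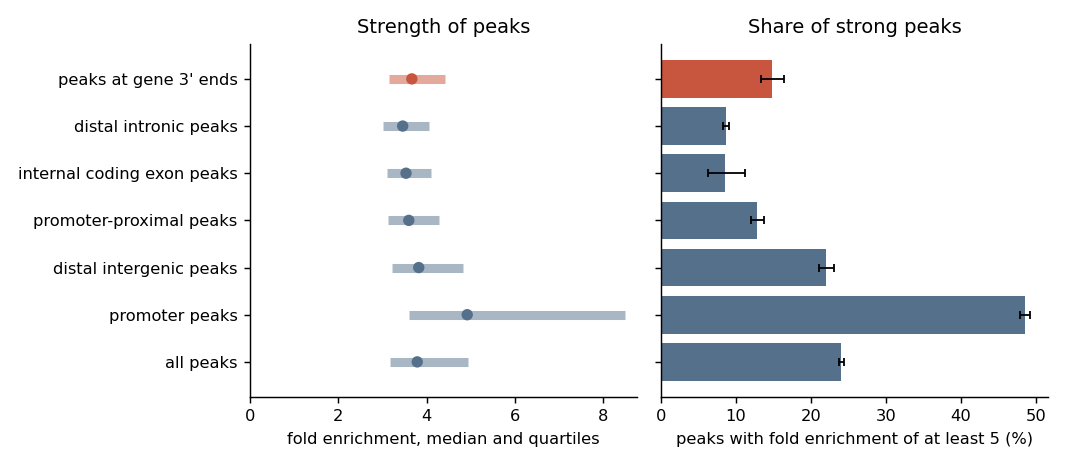
Fold enrichment by class of peak. Left, medians (points) and quartiles (bars), and right, the share enriched at least 5-fold with its exact binomial 95% interval. Peaks at gene 3′ ends have a median of 3.66 and a share of 14.8%, and promoter peaks have 4.92 and 48.5%.

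Width, position and base composition moved with strength among these peaks. The 384 peaks under a fold enrichment of 3 had a median width of 246 bp, the 1440 from 3 to 5 one of 288 bp, the 285 from 5 to 10 one of 941 bp and the 32 of 10 or more one of 2250 bp. The share past the 3′ end was 56.0, 57.7, 62.1 and 71.9% in these 4 bins. No interval was computed for these shares, and the last rests on 32 peaks. The share that was CpG-rich, with an observed/expected CpG ratio of at least 0.6 within 250 bp of the summit, was 1.82, 2.64, 7.72 and 12.5%. In the strongest bin this was 4 peaks (interval 3.51 to 29.0%).

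CpG-rich DNA was rare at gene 3′ ends. The median observed/expected CpG ratio was 0.225 (quartiles 0.139 to 0.321), against 0.689 at promoter peaks, 0.201 at distal intronic and 0.216 at distal intergenic peaks, and the median GC content was 44.9%. Of the peaks, 71 (3.32%, 2.60 to 4.16%) were CpG-rich, against 57.0% of promoter peaks and 2.80% of TSS-distal peaks. ID2, ZNF48, FHL3 and SP9 were among them, with ratios of 0.728, 0.681, 0.805 and 0.637. The cut-off set no limit on GC content. This was 70.3, 60.7 and 66.1% at ID2, ZNF48 and FHL3 but only 29.9% at SP9. The CpG-rich peaks had a median fold enrichment of 4.44 and 26 of them (36.6%, 25.5 to 48.9%) reached 5, against 3.64 and 14.1% (12.6 to 15.6%) of the others. Whether such DNA holds start sites that the annotation lacks was not tested.

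Small RNA genes lay within 500 bp of 17 summits (0.794%, 0.463 to 1.27%), close to the share of all peaks, 0.759%, and of TSS-distal peaks, 0.498%. They were 7 miRNA, 6 small nucleolar RNA, 3 miscellaneous RNA genes and 1 small nuclear RNA gene. These 17 peaks had a median fold enrichment of 4.94 and 7 of them reached 5. After TMEM107 the strongest was in the 3′ UTR of SLC35B2, a transporter of nucleotide sulfate, beside the MIR4647 gene (13.9), which was picked after its value was seen.

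Genes with a peak at a promoter carried a 3′ end peak far more often than genes without. Of 16350 coding genes with eligible DNA at the 3′ end, 1820 (11.1%) had a peak there. The share was 16.9% (16.2 to 17.7%, 1647 of 9727) with a promoter peak and 2.61% (2.24 to 3.03%, 173 of 6623) without, a ratio of 6.48 (5.56 to 7.56). It was larger where the best promoter peak was stronger. In quartile groups of that strength, divided at fold enrichments of 5.85, 8.54 and 11.9, the share was 7.56, 12.7, 19.7 and 27.9%, and the intervals of these 4 shares did not overlap. The difference was not limited to the 3′ end. Gene interiors held 43.3 peaks per Mb with a promoter peak and 3.998 without, beside 134 and 18.9 per Mb at the 3′ ends. In these densities by group of genes, a peak near the ends of neighbouring genes counts for each of them.

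The difference between genes with and without a promoter peak narrowed with gene length. In the shortest quartile of genes, up to 9982 bp, the shares were 27.2% (25.2 to 29.3%) with and 2.49% (1.89 to 3.21%) without a promoter peak. In the middle quartiles they were 21.0 against 2.54% and 14.9 against 1.93%. In the longest quartile they were 8.54% (7.51 to 9.65%) against 3.55% (2.63 to 4.66%). Where the whole window lay far enough from every TSS they were 16.7 and 2.88%.

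In the 1647 genes with both, the 3′ end peak was the weaker one in nearly every case. The median fold enrichment was 3.82 at the 3′ end and 10.8 at the promoter, and the 3′ end peak was the stronger in 80 genes (4.86%). Genes with a promoter peak but none at the 3′ end had a median promoter fold enrichment of 8.09. Across the 1647 genes the 2 strengths were weakly related (Spearman's rho 0.109, Pearson's r of the log2 values 0.134). Without the 20 genes whose 3′ end peak reached a promoter window rho was 0.102 (1627 genes). Both are descriptions across genes of 1 library, with no test, since genes are not replicates and share its depth.

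Cell cycle genes carried 3′ end peaks more often than coding genes as a whole. Of 45 eligible G2/M genes, which act in mitosis, 17 (37.8%, 23.8 to 53.5%) had one, against 11.1% of all coding genes. They were weak peaks. Among those nearest to the end of the listed gene, the strongest belonged to PLK1, a mitotic kinase (4.92, 3.17 to 7.34), CCNF, the F-box protein cyclin F (4.62, 2.97 to 6.89), and HJURP, the chaperone of centromeric histone (4.04, 2.45 to 6.34), whose promoters had peaks of 29.6, 9.21 and 15.2. KIF20A, a mitotic kinesin, had one of 4.86 and CCNA2, cyclin A2, one of 4.12, but these summits lay nearer to the ends of CDC23 and EXOSC9. Of 45 eligible G1/S genes, which act in DNA replication, 14 (31.1%, 18.2 to 46.7%) had one. The strongest were at RRM2, a subunit of ribonucleotide reductase (5.65, 3.90 to 7.95), GINS2, of the replicative helicase (5.22, 3.45 to 7.62), and MCM2, of the same helicase (5.07, 3.29 to 7.51). The intervals of the G2/M and G1/S shares overlapped. The interiors of these genes, over 1000 bp before the 3′ end and over 2000 bp from a TSS, were also dense in peaks, with 139 per Mb in G2/M and 185 per Mb in G1/S genes against 28.1 over all coding genes. At their 3′ ends the densities were 316 and 274 per Mb against 87.7.

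Promoters of these genes had strong peaks as well. Of the 45 G2/M genes, 34 had a promoter peak in the strongest quartile, and of the 45 G1/S genes 17 had. When the shares of all coding genes without a promoter peak and in each quartile group were weighted by the make-up of a list, they gave 25.1% for the G2/M list and 20.4% for the G1/S list. Both values lie inside the intervals of the lists, 23.8 to 53.5% and 18.2 to 46.7%.

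Genes known to be activated by EWSR1-FLI1 had the largest share of the study-related lists, 10 of 19 (52.6%, 28.9 to 75.6%), against 20.8% of all coding genes weighted to the same promoter strengths, which lies below that interval. ID2 and NR0B1 led with the peaks described above. The wide NR0B1 interval also reached a promoter of the gene, so its 3′ end and promoter values (12.0) are the same peak. SOX2, a transcription factor of stem cells, had 2 peaks, of 6.07 (4.04 to 8.78) in the 3′ UTR and 5.76 (4.10 to 7.88) downstream, both with a CHR motif near the summit, beside a promoter peak of 14.4. Of these 10 genes, 7 had a promoter peak in the strongest quartile, NR0B1 through that shared peak. The 19 genes held 253 peaks per Mb in their interiors and 477 at their 3′ ends, against 28.1 and 87.7 over all coding genes. The list was written from general knowledge, with earlier results of these data known.

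Genes changed by MYBL2 knockdown in the study were counted by the direction of the change. The study took these changes over A673, SK-N-MC and RDES cells together, whereas the peaks are of A673 alone. Of 28 eligible genes that fell, 8 (28.6%, 13.2 to 48.7%) had a 3′ end peak, and of 35 that rose 1 had (2.86%, 0.0723 to 14.9%). The intervals of the 2 shares overlapped between 13.2 and 14.9%. All coding genes weighted to the same promoter strengths gave 15.7 and 11.6%, inside both intervals. Interior densities were 71.9 per Mb in the genes that fell and 3.79 in those that rose, beside 248 and 16.9 per Mb at the 3′ ends. The strongest peaks among the genes that fell were those of KIF20A and CCNF given above. They were followed by BIRC5, the inhibitor of apoptosis survivin, with a 3′ UTR peak of 3.79 (2.48 to 5.56) 43 bp before the end, and PPP1CC, a catalytic subunit of protein phosphatase 1, with peaks of 3.79 and 3.05. CKAP2L, a spindle protein, also reached 3.79. The promoter peak of BIRC5 stood at 37.1. The 1 gene that rose was PIANP, with a 3′ UTR peak of 2.77 (1.567 to 4.596) and no promoter peak. The lists were not independent: 7 eligible genes were in both the G2/M list and the list that fell, and 5 of these had a 3′ end peak (BIRC5, CCNF, CKAP2L, KIF20A and MKI67). Of the other 21 genes that fell 3 had one.

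Ribosomal protein genes, a family picked after its values were seen, carried a 3′ end peak in 31 of 69 (44.9%, 32.9 to 57.4%), against 23.9% for all coding genes weighted to the same promoter strengths. The weighting took no account of gene length. The median length was 5321 bp in this family and 26709 bp over all coding genes, and the share was larger in short genes with a promoter peak. The strongest peak at each end had a median fold enrichment of 5.91, against 3.82 over all coding genes with such a peak. RPL13A, RPS14 (13.3, 10.1 to 17.1, in the 3′ UTR) and RPL35A led. Interior density was 64.1 per Mb and that at the 3′ ends 445. Genes with a ZNF symbol had one in 33 of 461 (7.16%, 4.98 to 9.91%) and olfactory receptor genes in 1 of 225 (0.444%, 0.0113 to 2.45%).

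**Figure D4:**
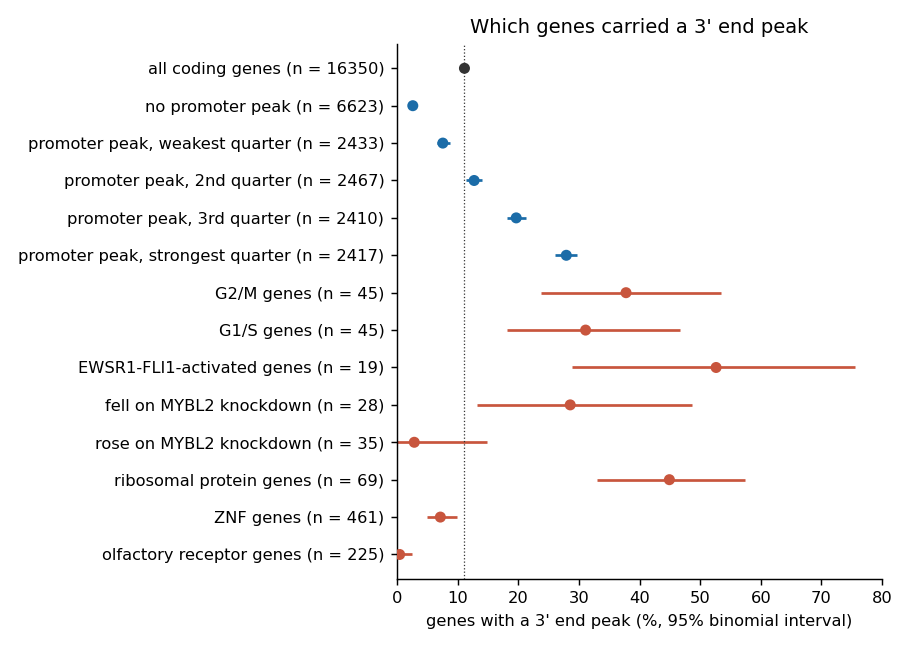
Share of coding genes with a peak at the 3′ end, with exact binomial 95% intervals, by the strength of the best promoter peak (blue) and in lists of genes (red). The dotted line is the share over all coding genes, 11.1%. The share goes from 2.61% without a promoter peak to 27.9% in the strongest quartile.

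The MYB motif was a little more frequent at these summits than beside them, and the CHR motif less frequent, but neither difference held under every alternative. The MYB motif lay within 50 bp of 240 summits (11.2%, 9.90 to 12.6%), against 9.27% in windows of the same size centred 500 bp to either side, a ratio of 1.21 (1.07 to 1.36). The share was 10.4% in all peaks, with a ratio of 1.11, and 9.22% at promoter peaks. It was 11.1% at all TSS-distal and at distal intronic peaks, with ratios of 1.15 and 1.16. Over 5000 bp from every TSS the MYB ratio of the 3′ end peaks was 1.03. The CHR motif lay at 168 summits (7.85%, 6.74 to 9.07%), fewer than in the flanks (9.90%), a ratio of 0.792 (0.681 to 0.916), whereas in all peaks it was at 9.68% with a ratio of 1.02 and at distal intronic peaks the ratio was 1.11. At promoter peaks the CHR ratio was also below 1, at 0.882 (0.837 to 0.930), with a share of 6.22%. The CHR share was 11.4% at TSS-distal peaks, and with 100 bp either side of the summit the ratio of the 3′ end peaks was 0.978. Ratio intervals are those of the summit share, with the flank share taken as known. The CCAAT box was at 296 summits (13.8%, ratio 1.18, 1.06 to 1.31), against 13.03% of all and 14.4% of TSS-distal peaks. The AP-1 motif, TGACTCA or TGAGTCA, was at 40 (1.87%, ratio 1.40, 1.01 to 1.90), against 2.03% of all and 2.52% of TSS-distal peaks. The polyadenylation signal AATAAA was at 328 (15.3%, ratio 0.972, 0.877 to 1.07), against 13.1% of all, 16.5% of TSS-distal and 17.9% of distal intronic peaks.

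The ETS, E2F and CTCF motifs were less frequent than at promoter peaks, at shares near those of all TSS-distal peaks. The ETS motif CCGGAAGT lay at 3 summits (0.140%, 0.0289 to 0.409%), against 0.705% of all peaks and 1.88% of promoter peaks and 0.152% of TSS-distal peaks. The E2F motif, searched as TTTCCCGC or TTTGGCGC or TTTCGCGC or TTTGCCGC, lay at 4 (0.187%, 0.0509 to 0.478%), against 0.521, 1.19 and 0.198%. The CTCF core AGNGGGCG lay at 12 (0.560%, 0.290 to 0.977%), against 1.73, 4.31 and 0.462%. A run of GGAA repeats, a kind of site at which EWSR1-FLI1 acts, lay at 1 summit. That is 0.0467% (0.00118 to 0.260%), against 0.0956% of all peaks and 0.137% of TSS-distal peaks.

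**Figure D5:**
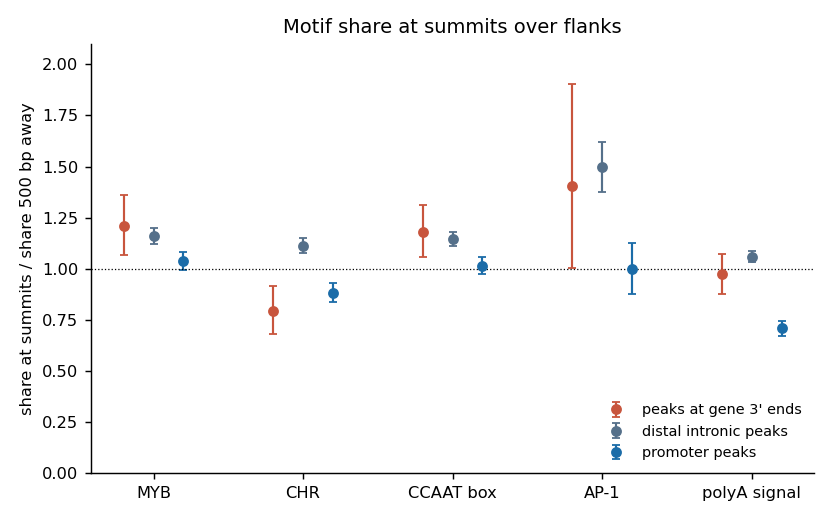
Share of summits with a motif within 50 bp, divided by the share in windows centred 500 bp away, for 3 classes of peak, with the exact binomial 95% interval of the summit share. The dotted line is a ratio of 1. At peaks at gene 3′ ends the MYB ratio is 1.21 and the CHR ratio 0.792. They were 1.03 over 5000 bp from a TSS and 0.978 with a 100 bp window.

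Density at 3′ ends varied between chromosomes. It was 129 per Mb on chromosome 21 (90.7 to 179, 36 peaks), 118 on chromosome 16 (96.1 to 142) and 110 on chromosome 9 (90.8 to 133), and lowest on chromosomes X (32.6, 23.3 to 44.4) and 13 (45.3, 29.0 to 67.4), against 80.4 over all. Chromosome 1 held the most peaks, 278, at 101.4 per Mb. On X all TSS-distal peaks were sparse too, at 4.70 per Mb against 15.5.

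The limits of the rule cut through a continuous set of positions. The peak farthest inside lay 1000 bp from the end of SHMT1 (fold enrichment 2.66), and the nearest one outside lay 1001 bp from the end of ATAD1 (5.39). The member closest to a TSS was 2006 bp from it, in KPNB1 (4.04), and the nearest excluded one lay 1998 bp from a TSS, at ITPR3 (6.74). Member TSS distances had a median of 4708 bp (quartiles 3086 to 7919 bp). In 15 peaks the summit lay in an annotated pseudogene, where reads can be shared with a parent gene.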

How the data were processed

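ChIP-seq was done on 1 MYBL2 ChIP and 1 input library of A673 cells. Per the study's methods and the submitters' processing notes (Bowtie2 2.1.10, MACS2 2.0.10), the authors aligned single-end reads to hg19 and called narrow peaks against the input. The deposited list had been cleaned in a way not given in the sources used here. Fold enrichment was deposited by the authors as a linear ratio, significance as −log10 p and −log10 q, and the deposited score is derived from q. Values of the input library itself were not analysed here.

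Whole-number pileups and backgrounds were recovered from the deposited fold and p-values, which they reproduced to within 3.49e-05 in −log10 p. Library totals are not in the list, so these pileups are the depth behind each value.

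3′ ends were those of 19478 canonical protein-coding transcripts of GENCODE lifted to GRCh37, and TSSs those of all transcripts of protein-coding and lncRNA genes. Densities by distance from the 3′ end and by chromosome were divided by eligible bases, each assigned to its nearest 3′ end. Densities of groups of genes were instead summed over the genes. Peaks and bases shared by neighbouring genes then count for each of them, so the 2 kinds of density differ. Shares have exact (Clopper-Pearson) binomial and counts exact Poisson intervals at 95%. The counting code was tested on simulated peaks. Python 3.11.15, scipy 1.17.1 and pandas 2.3.3 were used.

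The members, gene lists and motifs were chosen with earlier results of these data known. The lists of 50 G2/M, 53 G1/S and 20 EWSR1-FLI1-activated genes were written from general knowledge, and the genes that fell (29 of 31 matched) or rose (38 of 45) on knockdown came from the study's table. Named peaks were the 12 strongest, the 5 widest, the 3 strongest of each list, genes with most peaks at 1 end (at most 5), and those beside the limits of the rule. Alternatives changed the peak cut-offs, both distances, the transcripts and the windows.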

Additional observations from a re-analysis of the deposited data

How the results depend on the processing

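No paired analysis was possible because there was 1 ChIP library. Keeping only peaks with a −log10 q of at least 5, or with a fold enrichment of at least 5, left 1002 and 317 peaks at gene 3′ ends (2.90 and 1.97% of the kept peaks). Summits within 500 bp gave 1085 (1.62%), within 2000 bp 3774 (5.64%), over 5000 bp from every TSS 1001 (1.495%), and 3′ ends of any transcript 4762 (7.11%). Counting any base of the peak gave 3.80% of all peaks. The median fold enrichment was 4.49, 3.59, 3.58 and 3.75 under the q cut-off, the 5000 bp limit, the ends of any transcript and any base, and the share of at least 5 was 31.6, 10.7, 10.8 and 17.8%. The first of these follows from the cut-off, and the cause of the others was not tested. The density ratio to the flanks stayed above 1 in the 4 alternatives run: 1.87 (q), 2.15 (fold), 1.24 (flanks of 1000 to 2000 bp) and 1.53 (5000 bp). The gene side held 36.9% (fold), 39.0% (5000 bp) and 44.4% (within 500 bp). The ratio of gene shares by promoter peak was 4.12 with the fold cut-off and, in comparisons added after seeing the data, 10.9 in the shortest and 2.41 in the longest quartile of genes. The CpG ratio was 0.236 (q), 0.266 (fold) and 0.202 (100 bp window). The MYB ratio was 1.03 beyond 5000 bp, and the CHR ratio 0.978 with 100 bp either side, so neither difference from the flanks held under every alternative. Of 67 alternatives 28 stayed within the interval, or within 1.5 times the count, of the reported value and 39 moved outside it. A reversal could be recorded only for ratios, and 0 were. Pileups near 19 fragments limit comparisons between weak peaks.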
